A study of Homo sapiens with 7 samples.

Results

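AML1-ETO binding regions in Kasumi-1 cells were divided by whether another regulatory protein was called at the same place, and the regions described here are those of AML1-ETO alone. They were chosen by the positions of the peaks. A site was taken when the 100 bp window around its AML1-ETO summit shared no base with any window of AML1, N-CoR or p300. This left 6936 of the 18087 AML1-ETO sites, or 38.3%. The other 11151 sites shared at least 1 base with a window of another protein. Of these, 3013 overlapped AML1 and neither co-regulator, 4192 overlapped N-CoR without p300, 1104 overlapped p300 without N-CoR, and 2842 overlapped both co-regulators. That the AML1-ETO-only sites lacked the other proteins was the rule and is not a result.

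Kasumi-1 is an established myeloblast line from peripheral blood that carries the t(8;21) translocation, and all the lists come from these untreated cells, grown between passages 25 and 30 and at log phase. ChIP-seq was carried out for AML1, AML1-ETO (with an antibody against ETO), N-CoR, p300 and H3K4me3, and 1 list of peaks pooled over the biological replicates was used for each antibody. The lists hold 11692 AML1, 10004 N-CoR, 11020 p300 and 19632 H3K4me3 peaks. They hold positions only, so there is no peak height, no read depth and no spread between replicates, and no difference below was tested.

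AML1 (RUNX1) is a transcription factor that binds Runx sequences through its Runt domain and is needed for blood cell development. In the t(8;21) fusion this domain is joined to ETO, which recruits co-repressor complexes such as N-CoR with histone deacetylases, while p300 is an acetyltransferase that serves as a co-activator. ETS factors bind sequences around GGAA, and E proteins, which also contact ETO, bind the E-box CANNTG. H3K4me3 marks active or poised promoters.

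The windows of 7 AML1-ETO-only sites are printed to show the sequences that the shares below count. They were taken, after their sequences had been seen, from the 3 lowest-numbered sites with and without the Runx consensus TGTGGT, near and away from H3K4me3, and from the 3 sites farthest from the other proteins. Windows that reach an annotated UTR were left out. Each is the plus strand of GRCh37 (hg19), 5′ to 3′. Capitals mark the Runx sequence TGTGGT, its variant TGCGGT (read on the other strand as ACCACA and, for the variant, ACCGCA), the ETS sequence AGGAAG and E-boxes of the form CAGNTG on either strand.
KCTD6 promoter, chr3:58477583-58477682: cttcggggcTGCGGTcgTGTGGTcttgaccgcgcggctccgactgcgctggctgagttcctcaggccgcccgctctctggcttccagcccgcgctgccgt
RUNX3 region, chr1:25175011-25175110: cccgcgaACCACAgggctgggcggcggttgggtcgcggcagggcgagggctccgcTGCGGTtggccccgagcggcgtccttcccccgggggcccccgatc
PROSER2-AS1 promoter, chr10:11936924-11937023: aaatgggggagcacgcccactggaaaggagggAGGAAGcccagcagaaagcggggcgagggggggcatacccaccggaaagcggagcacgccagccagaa
UBASH3B intron, chr11:122588188-122588287: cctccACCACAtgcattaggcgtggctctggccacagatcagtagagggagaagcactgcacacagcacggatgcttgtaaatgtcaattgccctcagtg
KIT intron, chr4:55554234-55554333: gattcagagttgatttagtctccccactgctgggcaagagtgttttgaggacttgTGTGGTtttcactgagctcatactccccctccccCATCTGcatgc
SLC7A5 region, chr16:87850321-87850420: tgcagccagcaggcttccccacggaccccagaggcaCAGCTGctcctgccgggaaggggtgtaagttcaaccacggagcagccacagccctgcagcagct
Chromosome 15, chr15:22491323-22491422: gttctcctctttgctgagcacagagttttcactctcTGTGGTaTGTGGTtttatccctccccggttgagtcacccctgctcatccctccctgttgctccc

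The KCTD6 window lay 190 bp upstream of a KCTD6 start and 346 bp from an H3K4me3 summit, and the nearest other protein was AML1 at 20314 bp. It held both Runx forms. The RUNX3 window lay outside annotated genes, 80228 bp from a RUNX3 start, 2 bp from an H3K4me3 summit and 330 bp from p300, and G and C made up 80% of it. The PROSER2-AS1 window held AGGAAG and neither of the Runx forms above, and AML1 lay 127 bp away. The UBASH3B window lay in an intron, 8268 bp inside a start. N-CoR was at 101 bp, so this site was almost at the limit of the rule. The KIT window lay in an intron of KIT, which encodes the stem cell factor receptor, and AML1, N-CoR and p300 were at 360, 331 and 335 bp. It held TGTGGT and an E-box. The SLC7A5 window held CAGCTG and none of the other sequences that the capitals mark, with N-CoR at 125 bp. The window on chromosome 15 held TGTGGT at 2 adjacent places and lay 688 bp upstream of a transcript start. The nearest of the 3 proteins was 3836136 bp away. All 3 sites farthest from the other proteins lay on chromosome 15, and the farthest lay in an immunoglobulin V pseudogene. Whether reads map uniquely in that stretch was not tested.

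The AML1-ETO-only sites stood late in the deposited list. Over 10 equal parts of the list, they made up 1.93% of the first (35 of 1809 sites, 95% interval 1.35 to 2.68%), and their share rose in each following part to 65.5% in the last (1184 of 1808, 63.2 to 67.7%). Their median number in the list was 12416.5, against 6409 for the other AML1-ETO sites. The sources used here do not say what the order of the list means. Because of this difference in position, some values were also compared within these 10 parts. These were the promoter and H3K4me3 shares, the main Runx, ETS and E-box sequences and GC content. The other differences below are not divided by position in the list. The AML1-ETO-only share varied less by chromosome, from 33.8% on chromosome 20 (181 of 535) to 45.4% on chromosome X (169 of 372), and neither of the 2 AML1-ETO sites on chromosome Y was one.

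**Figure D1:**
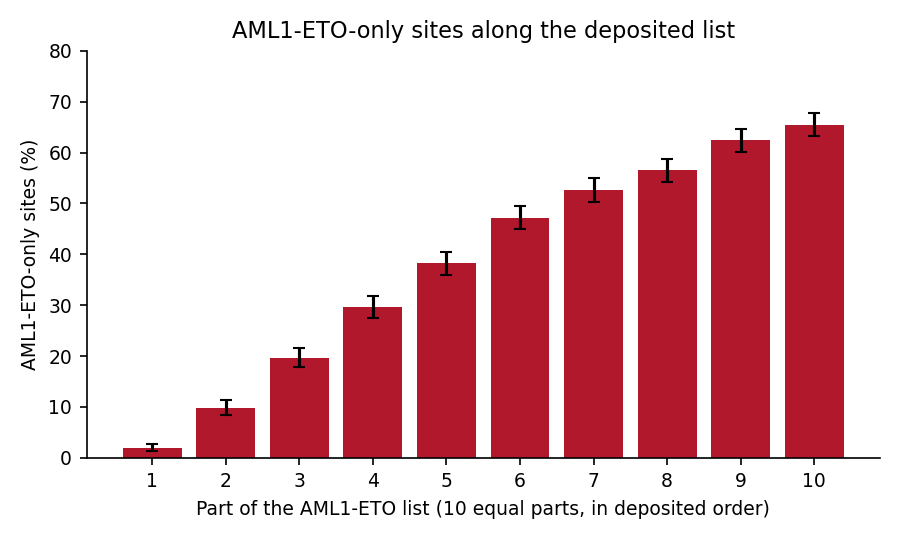
Share of AML1-ETO sites that overlapped no window of AML1, N-CoR or p300 (%, vertical axis) in each of 10 equal parts of the AML1-ETO list in deposited order (horizontal axis). Bars are shares and lines are exact 95% intervals; the share rises from 1.93% in the first part to 65.5% in the last.

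Although no window was shared, the other proteins were often close. The nearest summit of the 3 lay at a median distance of 10264 bp from an AML1-ETO-only summit, with quartiles of 1421.5 and 41917 bp. It lay within 1000 bp of 20.5% of the sites (1421, 95% interval 19.5 to 21.5%) and within 10000 bp of 49.6%. For 813 sites (11.7%) all 3 proteins were farther than 100000 bp. Each list alone gave a similar median, which was 27771 bp for AML1, 30815 bp for N-CoR and 29489.5 bp for p300. AML1 was the nearest protein for 34.9% of the sites, N-CoR for 29.6% and p300 for 35.5%. At short range p300 was the most frequent, with a summit within 1000 bp of 14.4% of the sites, against 9.30% for N-CoR and 8.88% for AML1.

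This proximity to p300 came with H3K4me3. Among the 1929 sites near H3K4me3, which means an H3K4me3 summit within 1000 bp, the median distance was 2801 bp to p300, 27205 bp to AML1 and 30500 bp to N-CoR. Among the 5007 sites away from H3K4me3 it was 40818 bp to p300, 27852 bp to AML1 and 30953 bp to N-CoR. The median distances to AML1 and N-CoR therefore differed little between both groups of sites, and that to p300 differed most. At short range the sites near H3K4me3 were closer to all 3 proteins, with a first quartile of 4063 against 6157.5 bp to AML1, 4271 against 5770.5 bp to N-CoR and 414 against 10257 bp to p300.

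**Figure D2:**
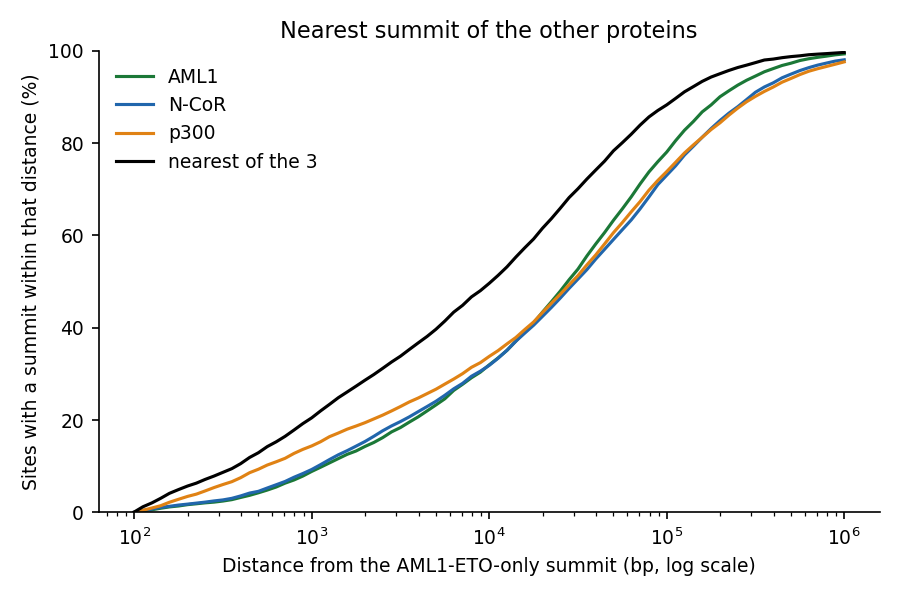
Share of the 6936 AML1-ETO-only sites (%, vertical axis) that had a summit of AML1, N-CoR, p300 or the nearest of the 3 within a given distance (bp, log scale, horizontal axis). The curves start at 100 bp, where windows cease to overlap; p300 lies above AML1 and N-CoR at 1000 bp, and the curve for the nearest of the 3 reaches 49.6% at 10000 bp.

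The sites changed in kind with this distance. Of the 494 sites with another protein at 100 to under 250 bp, 73.7% were near H3K4me3, the median GC content was 67%, and 12.3% held TGTGGT. Of the 2681 sites with the nearest protein at 10000 to under 100000 bp, 18.6% were near H3K4me3, the median GC content was 55%, and 32.0% held TGTGGT. Of the 813 sites farther than 100000 bp, 16.2% were near H3K4me3, the median GC content was 53%, and 35.5% held TGTGGT. The ETS sequence AGGAAG rose along the same classes from 17.8% through 34.8% to 36.4%. At the limit of the rule, the 134 sites inside it by less than 25 bp and the 323 outside it by 25 bp or less had TGTGGT in 12.7% and 11.1%, AGGAAG in 20.9% and 26.6%, CAGNTG in 25.4% and 31.0%, and H3K4me3 nearby in 62.7% and 49.5%.

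A neighbouring AML1-ETO summit was found within 1000 bp of 11.6% of the AML1-ETO-only sites (95% interval 10.8 to 12.4%) and of 9.08% of the others (8.56 to 9.63%). Within 5000 bp the shares were 34.2% (33.1 to 35.3%) and 33.6% (32.7 to 34.5%). For 61.6% of the 2372 AML1-ETO-only sites with a neighbour within 5000 bp, the nearest one was a site shared with another protein, and such sites made up 61.7% of the whole list.

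Of the AML1-ETO-only sites, 2455 (35.4%) lay at promoters, within 1000 bp of the start of any annotated transcript, and this share was 34.5% over all AML1-ETO sites. Introns held 39.2%, intergenic sequence 13.7%, the 10 kb upstream of genes 7.60% and exons 4.15%, close to the 39.9, 14.1, 7.38 and 4.14% over all AML1-ETO sites. H3K4me3 was near 27.8% of the sites (95% interval 26.8 to 28.9%), and near 27.4% of all AML1-ETO sites. These shares of the whole list join opposite differences along the deposited order. Both the promoter share and the share near H3K4me3 were above those of the other sites in parts 1 to 5 of the list and below them in parts 6 to 10. For H3K4me3 the shares were 28.6% against 18.5% in the first part, which held only 35 AML1-ETO-only sites, and 29.1% against 40.7% in the last. For promoters they were 40% against 27.8% and 36.1% against 43.6%. The values of the AML1-ETO-only sites moved little between the first and the last part, and those of the other sites moved most. The shared classes lay to both sides of these values, since H3K4me3 was near 14.8% of the sites with N-CoR and no p300, 19.2% of those with AML1 alone, 33.1% of those with both co-regulators and 79.7% of those with p300 and no N-CoR. The comparison with the shared sites depended on the rule. When sites with another summit within 1000 bp were left out, the share of AML1-ETO-only sites near H3K4me3 was 18.8% (n = 5515), below the 27.1% of the shared sites.

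Within promoters, a start lay within 100 bp of 40.1% of the AML1-ETO-only summits, against 52.1% of the 3778 other AML1-ETO promoter sites. The share was 40.4% at promoter sites with N-CoR without p300, close to that of the AML1-ETO-only sites, and 44.6% at those with AML1 alone. The classes with p300 are not given here. Of the AML1-ETO-only promoter summits 54.5% lay upstream of the start, against 60.1% of the others. H3K4me3 accompanied 66.6% of these promoter sites and 67.2% of the others.

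The AML1-ETO-only windows were richer in G and C than the pooled shared windows, and this did not hold against each shared class. Their median GC content was 57% (quartiles 50 and 65%), against 54% in the other AML1-ETO windows and 48.5% in the sequence 1000 bp to either side of them. It was 69% against 66% near H3K4me3 and 54% against 51% away from it. By class the median was 51% with N-CoR without p300, 52% with AML1 alone, 57% with both co-regulators and 67% with p300 and no N-CoR. Away from H3K4me3 it was 50% in the first 2 classes, 54% with both co-regulators and 58% with p300 and no N-CoR, so the sites with p300 lay at or above the AML1-ETO-only sites. The median was higher in 10 of 10 parts of the list and on 22 of 23 chromosomes, with a tie on the remaining one. The ratio of observed to expected CpG in the surrounding 1000 bp had a median of 0.763 near H3K4me3, against 0.735 at the shared sites, and of 0.222 away from it, against 0.223.

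**Figure D3:**
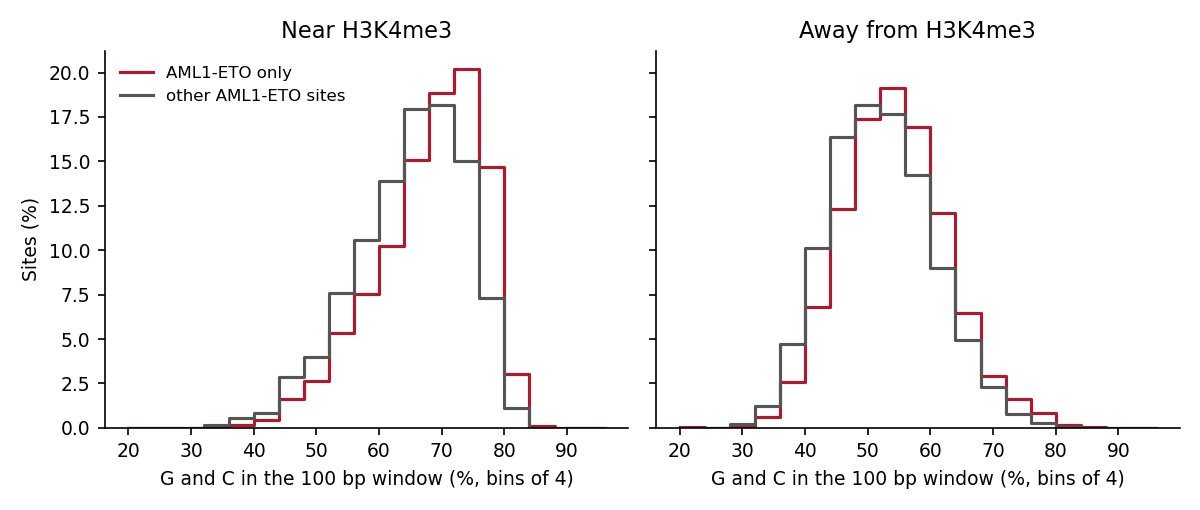
Distribution of GC content (% of the 100 bp window in bins of 4, horizontal axis) over AML1-ETO-only sites and other AML1-ETO sites (% of sites, vertical axis), near H3K4me3 on the left and away from it on the right. The AML1-ETO-only curve lies to the right in both, with medians of 69% against 66% and 54% against 51%.

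The Runx consensus TGTGGT was found in 28.4% of the AML1-ETO-only windows (1970 of 6936, 95% interval 27.3 to 29.5%), on either strand, and in 6.34% of the windows 1000 bp to either side. Over all AML1-ETO windows the share was 31.3%. It was 33.1% in the shared windows, where it was 9.60% with p300 and no N-CoR, 20.6% with both co-regulators, 33.7% with N-CoR without p300 and 52.6% with AML1 alone. Away from H3K4me3, 35.2% of the AML1-ETO-only windows and 60.0% of those with AML1 alone held it, while 37.2% of those with N-CoR without p300 did. The longer form TGTGGTT was found in 13.7% against 19.8% of the other AML1-ETO windows. The share of TGTGGT was lower in the AML1-ETO-only windows on 20 of 23 chromosomes and higher on 3. With the variant TGCGGT added, the shares were 34.9% (33.8 to 36.1%) and 42.1% (41.1 to 43.0%), and the AML1-ETO-only share was the lower one on 23 of 23 chromosomes. The position in the list moved with this result, and its part in it was not tested. For TGTGGT, the AML1-ETO-only share was lower in 7 of 10 parts. It was higher in part 7 (32.0% against 28.6%), part 9 (27.3% against 25.3%) and part 10 (26.4% against 23.7%). These parts held 951, 1130 and 1184 of the 6936 AML1-ETO-only sites, while part 1 held 35. In part 8, with 1022 of them, the shares were 25.2% and 25.3%. Among sites away from H3K4me3 the AML1-ETO-only share was lower in 8 of 10 parts. The difference also varied with GC content, and the part of GC content in it was not tested. In windows with under 45% G and C, TGTGGT was in 47.3% of the AML1-ETO-only windows and 53.5% of the shared ones, and at 45 to 50% in 39.5% and 46.4%. At 50 to 55% the share was 38.6% in both, and at 55 to 60% it was 31.0% and 32.6%. In richer windows the AML1-ETO-only share was the higher one, with 24.1% against 21.7% at 60 to 65%, 14.6% against 12.3% at 65 to 70% and 5.83% against 5.22% from 70%. TGCGGT was the more frequent form near H3K4me3, with 13.4% of the AML1-ETO-only windows there against 10.8% for TGTGGT.

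The ETS sequence AGGAAG was found in 32.4% of the AML1-ETO-only windows (31.3 to 33.5%) and in 11.1% of their flanks. Its share over all AML1-ETO windows was 37.5%, and it was 40.6% in the shared windows (39.7 to 41.6%) and 45.1% in those with N-CoR without p300. With AML1 alone it was 37.0%, and there the shares near and away from H3K4me3 were 18.1% and 41.6%. With p300 and no N-CoR it was lower than in the AML1-ETO-only windows, at 18.6%, and 14.5% and 34.4% near and away from H3K4me3. Against all shared sites, the AML1-ETO-only share was lower on 23 of 23 chromosomes and in 9 of 10 parts. In the last part the shares were 33.4% and 32.7%. By GC content it was lower in 6 of 7 classes. At 65 to 70% G and C the shares were 28.6% and 27.7%, and away from H3K4me3 40.9% and 35.3%. Near H3K4me3 17.0% of the AML1-ETO-only and 25.8% of the shared windows held it, and away from it 38.3% and 46.1%. The form CCGGAA, which is common in promoters, was found in 5.0% of the AML1-ETO-only windows and 8.82% of the others, and near H3K4me3 in 9.75% and 18.5%. The AML1-ETO-only share of CCGGAA was lower in 10 of 10 parts.

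The E-box CAGNTG went the other way. It was found in 35.0% of the AML1-ETO-only windows (2428, 33.9 to 36.1%), in 28.1% of the shared windows (27.2 to 28.9%) and in 30.7% of all AML1-ETO windows. The share was 25.3% with AML1 alone, 29.8% with N-CoR without p300, 24.4% with p300 and no N-CoR and 29.9% with both. It was higher in the AML1-ETO-only windows on 23 of 23 chromosomes and in 10 of 10 parts of the list. On chromosome 9 both shares round to 30.2%. Away from H3K4me3 it was 37.9% against 30.1%, and near H3K4me3 27.4% against 22.5%. Near H3K4me3 it was higher on 19 of 23 chromosomes and lower on 4. An E-box of this form is frequent in any sequence, with 24.8% in the flanks of the AML1-ETO-only sites and 24.2% in those of the others. GC content moved with it, from 26.0% of the windows with under 45% G and C to 45.1% of those with 65 to 70% among the AML1-ETO-only sites away from H3K4me3. The shared sites had 23.5% and 32.0% in the same classes, and the AML1-ETO-only share was higher in each of the 7 classes. The forms of the E-box were separated after their values had been seen. CAGCTG was in 16.2% of the AML1-ETO-only windows, 11.2% of the shared windows and 5.26% of the AML1-ETO-only flanks. CAGATG was in 11.4%, 9.97% and 7.25%. CAGGTG was in 7.14% and 3.8%, and both were below the 10.9% of the flanks.

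**Figure D4:**
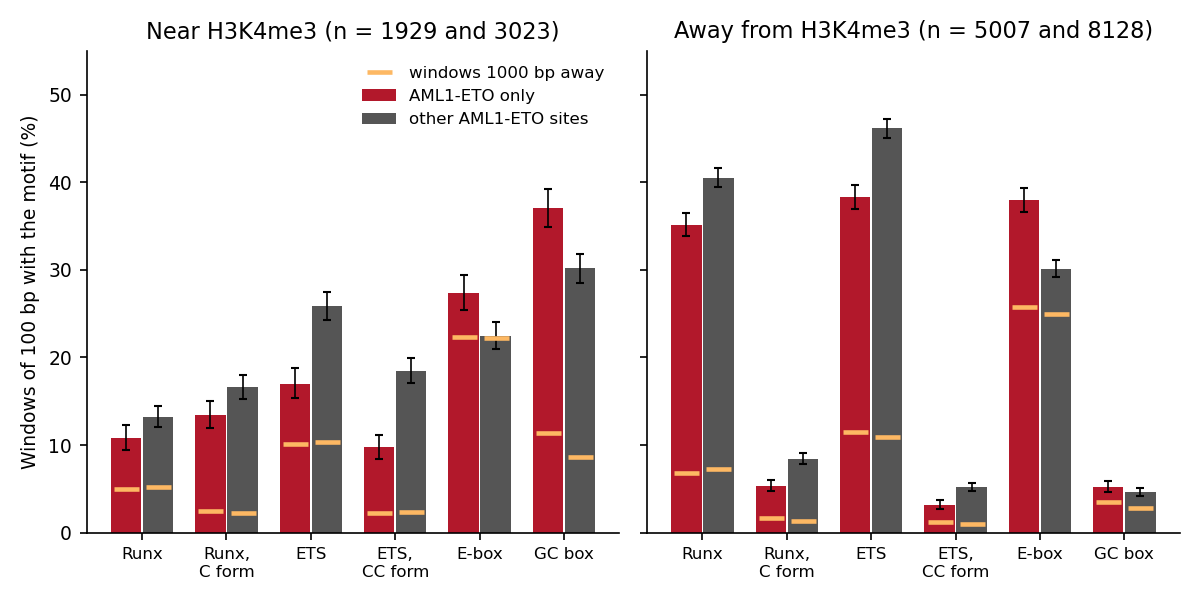
Share of 100 bp windows with each sequence (%, vertical axis) at AML1-ETO-only and other AML1-ETO sites, near H3K4me3 on the left and away from it on the right, with exact 95% intervals and with the share 1000 bp to either side as short lines. Runx is TGTGGT, its C form TGCGGT, ETS AGGAAG, its CC form CCGGAA, E-box CAGNTG and GC box GGGCGG; away from H3K4me3 the E-box stands at 37.9% against 30.1% and AGGAAG at 38.3% against 46.1%.

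These sequences were gathered at the summit. Away from H3K4me3, TGTGGT lay in the 20 bp to the right of the summit in 9.83% of the AML1-ETO-only sites, in 19.4% of those with AML1 alone and in 9.58% of those with N-CoR without p300. To the left it lay in 9.47, 17.9 and 9.91%. At 180 to 200 bp the shares were low on both sides, with 1.74 and 1.18% at the AML1-ETO-only sites, 1.64 and 0.904% with AML1 alone and 0.924 and 1.23% with N-CoR without p300. At the summit the AML1-ETO-only profile of TGTGGT thus lay near that of the N-CoR sites and below that of the AML1 sites. The E-box was less sharply placed, with 9.67 and 10.0% in the 20 bp to the right and left of the summit and 5.47 and 5.23% at 180 to 200 bp, against 7.67 and 7.31% and 5.91 and 4.48% at sites with N-CoR without p300.

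**Figure D5:**
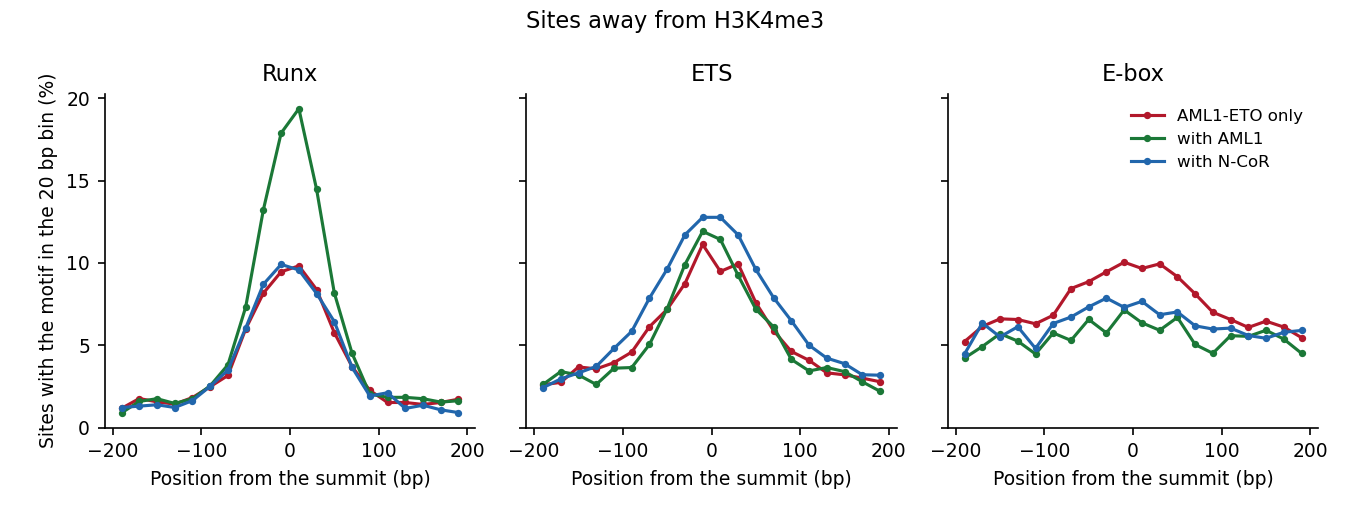
Share of sites away from H3K4me3 with the Runx sequence TGTGGT, the ETS sequence AGGAAG or the E-box CAGNTG in each 20 bp bin (%, vertical axis) by position from the AML1-ETO summit (bp, horizontal axis), for AML1-ETO-only sites, sites with AML1 alone and sites with N-CoR without p300. In the 20 bp to the right of the summit, the AML1-ETO-only curve stands at 9.83% for Runx and that with AML1 at 19.4%; for the E-box it stands at 9.67%, against 6.37% with AML1 and 7.67% with N-CoR.

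TGTGGT and AGGAAG occurred together in 8.29% of the AML1-ETO-only windows, where the product of their shares is 9.21%, and in 12.9% of the shared windows, where it is 13.4%. None of the Runx and ETS forms searched (the 2 Runx forms above, the ETS forms AGGAAG and, with another start, CCGGAA, and the form GAGGAA bound by PU.1) was present in 35.0% of the AML1-ETO-only windows (33.9 to 36.2%), against 24.9% of the shared windows and 16.2% of those with AML1 alone. Near H3K4me3 this share was 53.2% of the AML1-ETO-only windows, and away from it 28.1%.

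Of the other sequences searched, the GC box GGGCGG was found in 14.1% of the AML1-ETO-only windows, 11.5% of the shared ones and 29.2% of those with p300 and no N-CoR, and near H3K4me3 in 37.1, 30.2 and 33.6%. AP-1 sequences (TGANTCA) were in 4.50% and 5.61%, C/EBP sequences (TTGCNNAA) in 7.41% and 9.59%, and Myb sequences (TAACNG) in 8.62% and 11.1%. The GATA sequence AGATAA, at 3.06%, and CCAAT, at 7.54%, were below their flanks of 5.15% and 11.6%. The CTCF core AGGGGGCGC was rare, at 0.937% against 0.529% in the shared windows and 0.108% in the flanks. Words of 6 letters found in at least 2% of the AML1-ETO-only windows were ranked by their ratio to the flanks. The highest was CGACCG, at 6.04, followed by the Runx words AACCAC, at 5.42, and AACCGC, at 5.31. At the shared sites the ratios of these words to their own flanks were 5.58, 6.34 and 9.92, so both Runx words were higher there. Away from H3K4me3, TGTGGG was among the 10 leading words and was present in 29.0% of the AML1-ETO-only windows and 20.1% of the shared ones.

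Some windows were short repeats. A word of 6 letters occurred 4 or more times in 4.76% of the AML1-ETO-only windows, 4.47% of the shared windows and 8.41% of the AML1-ETO-only flanks. This count was added after such a window was seen among the lowest-numbered sites. Without these windows, TGTGGT was in 28.1% against 33.3%, AGGAAG in 32.6% against 40.5% and CAGNTG in 35.5% against 28.4%.

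Each site was next assigned to the protein-coding gene with the nearest start. The median distance was 5843 bp, against 7601 bp for the other AML1-ETO sites. Of 20136 protein-coding genes, 4656 (23.1%) were nearest to at least 1 AML1-ETO-only site, and 3250 of these had exactly 1. All the AML1-ETO sites nearest to 2077 genes were AML1-ETO-only sites, which is 25.2% of the 8246 genes nearest to any AML1-ETO site. The remaining 2579 genes had shared sites as well. When a gene and 5 kb to either side were taken instead, 4583 genes held an AML1-ETO-only site, and 1042 of them held no site of AML1, N-CoR or p300.

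The genes with the most AML1-ETO-only sites within 5 kb also held shared sites. IQSEC1, which encodes an exchange factor for the GTPase ARF6, had 10 of its 17 AML1-ETO sites in this class. BCOR, a co-repressor of BCL6, had 9 of 14. RUNX1 itself had 9 of 26, in a locus of 1216868 bp. COL23A1 had 8 of 15, GSE1 8 of 22, SH3RF3 8 of 14 and HIVEP3 8 of 18. FAM53B had 7 of 12 and the lymphocyte kinase gene STK10 7 of 13. By length, BCOR had 6.54 AML1-ETO-only sites per 100 kb and RUNX1 0.734. By nearest start, BCOR had the most of any gene, with 17 of 33.

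Among genes in which all the AML1-ETO sites within 5 kb were AML1-ETO-only, KIFC3, a kinesin gene, had the most, with 5, and no site of AML1, N-CoR or p300. SPC24, a kinetochore gene, had 4, as did PLXNB2, NSMCE1, TXLNB, BRME1, ALG1L2, NKAIN3 and ARID1B. Apart from TXLNB, each of these genes with 4 also held a site of AML1, N-CoR or p300 in the span. ARID1B, which encodes a subunit of the SWI/SNF remodelling complex, held 4 p300 sites in the same span, while TXLNB held none. By nearest start, both had shared sites as well, and 8 of 11 sites of ARID1B and 5 of 7 of TXLNB were AML1-ETO-only. ALG1L2 belongs to a family with near-identical copies, so its sites may be uncertain, and this was not tested.

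The gene lists follow the biology of t(8;21) cells. Of 18 myeloid signalling genes, 13 (72.2%) were nearest to an AML1-ETO-only site, against 23.1% of all genes. For AML1-ETO sites of any class the count was 17 (94.4%), against 41.0% of all genes. Of the list's 101 AML1-ETO sites, 32 were AML1-ETO-only, or 31.7% against 38.3% over all genes. Within 5 kb, SH2B3, an adaptor that restrains JAK2 signalling, had 5 of 11, the Src-family kinase gene FGR 3 of 6, and PIK3R5, a regulatory subunit of PI3-kinase gamma, 3 of 5. In the same spans, none of the 4 sites of the lysosomal protein gene LAPTM5 and of the 4 of the phosphatase gene DUSP6 was AML1-ETO-only, while by nearest start 2 of the 8 sites of DUSP6 were.

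Of 20 surface protein and receptor genes, 12 (60%) were nearest to an AML1-ETO-only site, against 23.1% of all genes. For AML1-ETO sites of any class the count was 16 (80%), against 41.0% of all genes. Of the list's 76 sites, 19 (25%) were AML1-ETO-only, against 38.3% of all sites. FLT3, a receptor tyrosine kinase gene of early progenitors, had 2 sites within 5 kb, and both were AML1-ETO-only with no AML1, N-CoR or p300 site in the span. CSF1R, the macrophage growth factor receptor gene, had 2 of 5, the integrin gene ITGB2 3 of 9 and KIT 1 of 6. Among the granule genes, 2 of 12 azurophil granule genes (16.7%) were nearest to an AML1-ETO-only site, below the 23.1% of all genes. For AML1-ETO sites of any class the count was 9 (75%). Of their 23 sites, 2 (8.70%) were AML1-ETO-only, below the 38.3% of all sites. Within 5 kb, 1 AML1-ETO-only site fell in the overlapping spans of ELANE (neutrophil elastase) and CFD (complement factor D) and was the only AML1-ETO site of either, while none of the 3 sites of MPO (myeloperoxidase) was.

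Among regulators, 4 of 6 genes of the Runx, CBF and ETO family and 9 of 14 ETS factor genes were nearest to an AML1-ETO-only site. So were 8 of 14 myeloid factor genes and 8 of 14 stem cell factor and E protein genes, against 23.1% of all genes. For AML1-ETO sites of any class the counts in these lists were 4, 11, 12 and 12, against 41.0% of all genes. Of the AML1-ETO sites of these lists, 19 of 55, 21 of 58, 17 of 57 and 15 of 40 were AML1-ETO-only. These shares of 34.5, 36.2, 29.8 and 37.5% stood beside 38.3% over all genes, and the first, second and last were near it. For the myeloid factors, 11 of 25 sites (44%) within 5 kb of the genes were AML1-ETO-only, against 39.7% over all genes, so no direction is read from that list. The ETO relative CBFA2T3 had 3 of 8 sites within 5 kb and RUNX3 1 of 2. Among ETS factor genes, ELF2 had 3 of 4 and ELF4 3 of 6, while FLI1 had 1 of 9, ERG 2 of 6, SPI1 1 of 3 and ELK3 2 of 6. Over all the listed ETS genes, 14 of 39 sites within 5 kb (35.9%) were AML1-ETO-only. CEBPE, a factor of late granulocyte maturation, had 2 of 2, the retinoic acid receptor gene RARA 4 of 8 and IRF8 2 of 3. The CEBPE span also held 2 N-CoR sites. None of the 4 sites of GFI1, the 1 site of EGR2 and the 2 sites of BACH2 within 5 kb was AML1-ETO-only, while by nearest start 1 of the 2 sites of BACH2 was. The E protein gene TCF3 (E2A) had 2 of 2, in a span that also held 1 AML1, 1 N-CoR and 3 p300 sites. None of the 4 sites of TCF12, the HEB gene, within 5 kb was AML1-ETO-only, while 1 of its 4 by nearest start was. LMO2 had 3 of 5. Of 12 cell cycle genes, 3 (25%) were nearest to such a site, close to the 23.1% of all genes, and 7 of their 22 sites (31.8%) were AML1-ETO-only. The inhibitor gene CDKN1B (p27) had 3 of 3 within 5 kb and CCND1 (cyclin D1) 1 of 1, and neither span held a site of AML1, N-CoR or p300. By nearest start CCND1 had 3 of 4, so 1 of its sites was shared. None of the 7 sites of CCND3 (cyclin D3) was AML1-ETO-only. Of 12 co-regulator genes, 6 (50%) were nearest to an AML1-ETO-only site and 8 to an AML1-ETO site of any class. Of their 46 sites, 16 (34.8%) were AML1-ETO-only, and CREBBP, the paralog of p300, had 1 of 1. For comparison, 11 of 77 ribosomal protein genes (14.3%) were nearest to an AML1-ETO-only site, and 14 of their 47 AML1-ETO sites (29.8%) were of this class.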

How the data were processed

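The authors aligned reads to GRCh37 (hg19) with Bowtie 0.12.8, allowing up to 2 mismatches, pooled the replicates and called peaks with MACS2 2.0.10.20131216 at p < 1e-20. The submitters' processing notes also name CASAVA 1.6. The deposited files give positions in bp, with no score, count or signal, so the depth behind each peak is unknown. Each interval was checked to be 100 bp wide and its middle was taken as the summit. The AML1 antibody, per the study's methods, recognizes the part of AML1 that the fusion lacks.

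Sites were grouped by windows sharing at least 1 bp. Motifs were searched for on both strands, in the window reaching 50 bp to either side of the summit. Flanks were 100 bp windows centred 1000 bp to either side. Genes were those of GENCODE release 44 lifted to GRCh37. An element was the first that applied of promoter (a start within 1000 bp), exon, intron, 10 kb upstream and intergenic. Chromosome Y was left out of counts over 23 chromosomes.

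The members, gene lists and motifs were chosen with earlier results of these data known. Printed sites were to be the 3 lowest-numbered in each of 4 classes and the 3 farthest, outside chromosome 8, and genes the 10 with most AML1-ETO-only sites within 5 kb, with and without other AML1-ETO sites. Of the former, 7 windows are shown. Some of the genes this rule takes are not reported here. Shares carry 95% intervals by the exact method of Clopper and Pearson over sites, and these hold no error between libraries. With 1 list per antibody no test was possible.

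Counting was tested on simulated data, where all 3000 planted overlaps among 10000 sites and all 700 planted motifs among 2000 windows were recovered. Python 3.11.15, numpy 2.4.6, SciPy 1.17.1, pandas 2.3.3, pysam 0.24.0, samtools 1.23.1 and matplotlib 3.10.9 were used. Neither H3K27me3 nor input was analysed here.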

Additional observations from a re-analysis of the deposited data

How the results depend on the processing

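No paired analysis was possible because the replicates were pooled into 1 list per antibody. The lists hold no height, so a site next to a weaker, uncalled peak of another protein cannot be told from one without it. With windows of 25, 100 and 250 bp to either side, the number of AML1-ETO-only sites was 8060, 6541 and 6040, against 6936. Without chromosomes 8 and 21 it was 6526 of 16940 AML1-ETO sites. The number of nearest genes, 4656, became 5503 with the starts of any gene and 4171 with starts within 50 kb. It was 4583 with genes and 5 kb to either side. Leaving out each of 23 chromosomes in turn kept TGTGGT between 28.2 and 28.7%, AGGAAG between 32.0 and 32.7%, CAGNTG between 34.7 and 35.3% and the distance to the nearest protein between 9976 and 10798 bp. The differences from the other AML1-ETO sites in Runx (30 alternatives), ETS (30), E-box (29) and GC content (26) kept their direction under these alternatives. In each set, 23 alternatives left out 1 chromosome. By position in the list, only its earlier sites were taken alone (1795 AML1-ETO-only sites), and this was not done for GC content. Within the 10 parts of the list, TGTGGT turned in parts 7, 9 and 10 and AGGAAG in part 10. By GC content, TGTGGT turned from 60% G and C and AGGAAG at 65 to 70%. The E-box and GC content turned in no part of the list. Under the alternatives, some differences became smaller. With windows of 250 bp to either side, Runx was 30.5% against 31.7% and ETS 34.4% against 39.0%. Without members that had another summit within 1000 bp, Runx was 31.3% against 33.1% and GC content 55% against 54%. The E-box difference did not shrink under these changes of members.

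The difference in promoter share turned under 3 alternatives. With starts within 500 bp the shares were 28.1% and 28.3% in the other sites. Without members that had another summit within 1000 bp they were 27.5% and 33.9%, and with windows of 250 bp to either side 30.0% and 36.7%. The share near H3K4me3 turned under the same changes of members, to 18.8% against 27.1% and 21.3% against 30.4%. These members lie farther from the other proteins by construction.

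Other values moved without a change of direction. The distance was 27771, 30815 and 29489.5 bp to AML1, N-CoR and p300 alone. Promoters held 46.4% at 2500 bp and 30.0% with protein-coding genes only. H3K4me3 was near 21.3% at 500 bp and 31.8% at 2000 bp. GC content was 58% within 25 bp, 55.5% within 100 bp and 55% without members near another summit. Runx was 34.9% with TGCGGT added, 13.7% as TGTGGTT, 16.3% within 25 bp, 37.3% within 100 bp, 31.3% without members near another summit, 30.5% with windows of 250 bp and 30.8% in the first 50% of the list. ETS was 23.1% as GAGGAA, 5.0% as CCGGAA, 18.1% within 25 bp, 47.2% within 100 bp, 35.2% without members near another summit and 34.4% with windows of 250 bp. The E-box alternatives were added after seeing the data and gave 16.2% as CAGCTG, 18.9% within 25 bp, 54.3% within 100 bp and 38.6% in the first 50% of the list. The cause of these shifts was not tested beyond the changed windows and letters.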
